A study of Mus musculus with 12 samples.

Results

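The 6 genes described here encode the glycoproteins of the zona pellucida and factors that the mouse oocyte secretes: Zp1, Zp2, Zp3, Gdf9, Bmp15 and Oosp1. They were taken as a fixed list of symbols, and all 6 of 6 were present in both deposited tables, among 11385 genes in all. Every one of the 6 passed the filter on low values, so none was lost.

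Total RNA was sequenced from germinal-vesicle (GV) oocytes, the stage arrested in meiotic prophase, labelled as WT or as lacking mitofusins. Mitofusin 1 and mitofusin 2 sit in the outer membrane of mitochondria and fuse them, and the study addresses their role in oocyte development. WT oocytes were set beside Mfn1-/-, Mfn2-/- and Mfn1&2-/- oocytes (the last without either gene), which makes 4 groups with 3 pools of 50 oocytes each. Every group was labelled C57BL/6J, came from mice 21 to 23 days old that received no hormone priming, and had its cumulus cells removed by pipetting. The sources used here do not give how or in which cells the alleles were deleted. The promoter of Zp3, one of the genes described, is widely used to drive Cre recombinase in growing oocytes, and whether it was used here is likewise not given. Nothing in the labels ties a pool to its own animals, so p-values measure the spread between pools, which may be technical.

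The zona pellucida is the glycoprotein coat that the growing oocyte builds around itself. In the mouse, ZP2 and ZP3 form its long filaments and ZP1 crosslinks them. GDF9 and BMP15 are members of the TGF-beta family that the oocyte sends to the surrounding granulosa cells, where they drive follicle growth and cumulus function, alone or as a heterodimer. OOSP1 is a secreted protein of the oocyte whose function is less well known. All of these genes are transcribed while the oocyte grows and serve as markers of that phase. The factor FIGLA acts on the zona genes through E-boxes, and the homeobox factor NOBOX acts on Gdf9 and other oocyte genes.

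The upstream sequences of 3 of the 6 genes are printed because these 3 had a RefSeq promoter entry (build GRCm38.p6). Among them are Bmp15 and Oosp1, which passed the test in Mfn2-/- against WT, and Zp3, which passed in no comparison. Each is read 5' to 3' on the strand of its gene, with E-boxes (CANNTG, which reads as the same pattern on both strands) in capitals. The Zp3 stretch is chr5:135979855-135980098 on the plus strand, that of Bmp15 is chrX:6320725-6320974 on the minus strand and that of Oosp1 is chr19:11691151-11691301 on the minus strand. The stretches were cut where they would enter the GENCODE gene, which leaves 244, 250 and 151 bases.
Zp3: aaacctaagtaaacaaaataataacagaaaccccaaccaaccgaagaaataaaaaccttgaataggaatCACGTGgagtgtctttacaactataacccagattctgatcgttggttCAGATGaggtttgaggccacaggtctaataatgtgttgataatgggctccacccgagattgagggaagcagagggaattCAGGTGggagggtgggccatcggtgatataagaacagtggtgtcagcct
Bmp15: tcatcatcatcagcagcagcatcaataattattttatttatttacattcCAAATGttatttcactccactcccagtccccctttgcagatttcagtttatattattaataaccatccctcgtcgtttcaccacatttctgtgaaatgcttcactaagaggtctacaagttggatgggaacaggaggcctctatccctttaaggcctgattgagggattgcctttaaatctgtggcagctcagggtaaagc
Oosp1: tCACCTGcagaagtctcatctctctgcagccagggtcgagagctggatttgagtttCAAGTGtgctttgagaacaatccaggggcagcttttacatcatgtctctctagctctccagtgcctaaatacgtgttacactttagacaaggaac
Motifs were counted over the full 250 bases before each RefSeq start. Zp3 had 3 E-boxes there, at 181, 134 and 55 bases before the start, and 12.2% of 32851 windows of this length held as many. Oosp1 had 5, at 249, 194, 93, 59 and 48 bases before the start, and 1.15% of windows held as many. The 3 nearest lie beyond the printed stretch, in the 99 bases that fall inside the GENCODE gene. The printed stretch of Oosp1 held 2. Bmp15 had 1 E-box, at 201 bases, and 66.2% of windows held at least 1. The letters CAGGTG, a form of the E-box searched on both strands, occurred at 55 bases in Zp3 and at 249 and 59 bases in Oosp1, where they read CACCTG, and 17.2% of windows held them. The letters CACGTG, another form of the E-box, occurred at 181 bases in Zp3 (6.02% of windows). Of the motifs TAATTG and TAATTA, known for NOBOX, TAATTA occurred in Bmp15 at 225 bases (4.84% of windows), and TAATTG was in none of the 3 windows (7.17% of all). These are matches of letters and no binding was measured.

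Deposited libraries held 11575357 to 16024893 counts, and the 6 genes drew 1409 to 76539 counts each in a library, so the counting error alone was 0.361 to 2.66% of a value. The spread between the 3 pools of a group was 0.485 to 20.3%. It was wider than the counting error except for Oosp1 in Mfn1&2-/-, where it was 2.28% against counting errors of 2.03 to 2.35%. The targeted genes followed the labels: Mfn1 stood at 279.7 ± 16.4 CPM (counts scaled to library size with TMM factors, mean ± SD, n = 3 pools) in WT, 230.2 ± 14.2 in Mfn2-/-, 18.1 ± 0.696 in Mfn1-/- and 20.1 ± 5.87 in Mfn1&2-/-. Mfn2 stood at 76.3 ± 9.75 CPM in WT, 66.5 ± 3.74 in Mfn1-/-, 11.2 ± 2.19 in Mfn2-/- and 10.8 ± 1.31 in Mfn1&2-/-. WT replicate 3 stood apart from the other pools. It was the lowest of 12 libraries for 5 of the 6 genes, at 69.8 to 83.2% of the mean of the other 11 over the 6. The same library had the highest level for 7 of the 10 granulosa markers measured, with Inha at 77.9 CPM, Inhba at 71.3 and Inhbb at 155.4. The 10 markers summed to 873 CPM there, against 513 CPM in the lowest WT pool, 496 to 512 in Mfn1-/-, 440.0 to 542 in Mfn2-/- and 488 to 513 in Mfn1&2-/-. Much of each sum was Serpine2, at 276 to 371 CPM over the 12 libraries. Outside WT replicate 3, Inha, Inhba and Inhbb reached at most 19.8, 5.31 and 17.0 CPM. The granulosa markers Amh, Foxl2, Amhr2 and Star were not among the genes measured, and 1 of the 10 measured (Fshr) was at 0 in some library. How far granulosa RNA bears on the levels of the 6 genes was not tested.

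All 6 genes were abundant in WT oocytes. Per kilobase of annotated exon, which makes levels comparable between genes, Gdf9 was highest at 1982 ± 356 CPM per kb (n = 3) and ranked 2 among 10700 genes with a known length. Zp2 followed at 835 ± 86.2 CPM per kb (rank 14) and Zp3 at 753 ± 152 (rank 18). Bmp15 stood at 422 ± 20.0 CPM per kb (rank 34), Zp1 at 264 ± 49.7 (rank 69) and Oosp1 at 129 ± 7.04 (rank 229). The order Gdf9, Zp2, Zp3, Bmp15, Zp1, Oosp1 held in 10 of the 12 libraries, and in the other 2, WT replicate 2 and Mfn1&2-/- replicate 1, Zp3 lay above Zp2. Zp2 and Zp3 thus did not differ beyond their spread in WT. Together the 6 genes took 0.909 ± 0.126% of all counts in WT, 0.947 ± 0.123% in Mfn1-/-, 1.15 ± 0.0705% in Mfn2-/- and 0.979 ± 0.106% in Mfn1&2-/-.

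**Figure D1:**
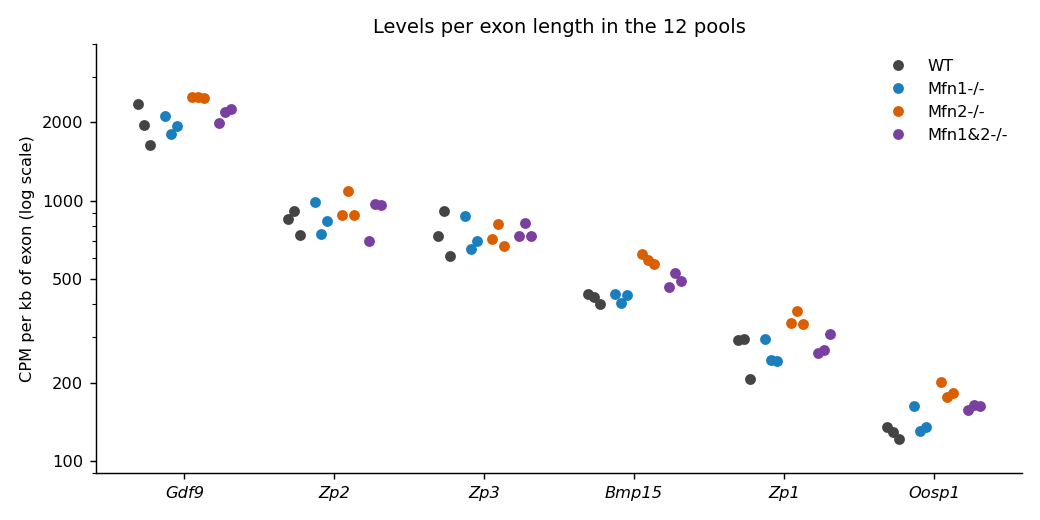
Level of each gene per kilobase of exon (y axis, CPM per kb, log scale) in the 12 pools, 1 point per pool, coloured by group. Gdf9 lies highest and Oosp1 lowest in every pool, and Zp2 and Zp3 are the pair that exchange places.

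Among the zona genes, only Zp1 passed an edgeR test between groups. It was higher in Mfn2-/- than in WT (adjusted p = 0.0468) and than in Mfn1-/- (adjusted p = 0.0335). These calls were lost in 10 and 6 alternative settings, among them the removal of any Mfn2-/- pool in turn. The approximate 95% interval of Zp2 in Mfn2-/- against WT ran from -0.10 to 0.47 on the log2 scale. It holds the Zp1 difference of 0.41, so Zp1 was not set apart from Zp2. Zp1 (chr19:10914287-10920632, minus strand, GRCm38, GENCODE vM21) stood at 577, 583 and 409 CPM in WT replicates 1, 2 and 3. The Mfn1-/- pools had 581, 485 and 479 CPM, and those of Mfn1&2-/- had 514, 531 and 611 CPM. The Mfn2-/- pools had 674, 747 and 665 CPM and lay above all 9 other libraries. The group means were 523 ± 98.6 CPM in WT, 515 ± 57.0 in Mfn1-/-, 696 ± 44.9 in Mfn2-/- and 552 ± 51.8 in Mfn1&2-/- (SD, n = 3).

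Zp2 (chr7:120126772-120145291, minus strand), whose protein bears the site to which sperm bind, stood at 2322, 2483 and 2020.0 CPM in WT. The Mfn1-/- pools had 2684, 2029 and 2278 CPM, the Mfn2-/- pools 2402, 2956 and 2392, and the Mfn1&2-/- pools 1899, 2644 and 2632. Every pair of groups overlapped. Zp3 (chr5:135980099-135988624, plus strand), the partner of ZP2 in the zona filament, stood at 966, 1210.5 and 810.4 CPM in WT. It stood at 1152, 860.0 and 928 CPM in Mfn1-/-, at 945, 1077 and 885 in Mfn2-/- and at 970.5, 1087 and 968 in Mfn1&2-/-. Its 4 group means lay between 969 and 1008 CPM, a narrower range than the spread of the WT pools alone.

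Gdf9 (chr11:53431023-53437904, plus strand) stood at 4775, 3966 and 3334 CPM in WT, at 4295, 3680.1 and 3928 in Mfn1-/- and at 4033, 4457 and 4559.7 in Mfn1&2-/-. The Mfn2-/- pools had 5096, 5089 and 5050.3 CPM, the 3 highest values and also the tightest group, at 5078 ± 24.6 CPM against 4025 ± 722 in WT. Bmp15 (chrX:6314107-6320721, minus strand) stood at 1340.4, 1310.5 and 1223 CPM in WT and at 1343, 1238 and 1327 in Mfn1-/-. It reached 1915, 1811 and 1747 CPM in Mfn2-/- and 1431, 1607 and 1510.5 in Mfn1&2-/-. Neither Mfn2-deficient group overlapped WT or Mfn1-/- for Bmp15. The means were 1291 ± 61.1 CPM in WT, 1303 ± 56.5 in Mfn1-/-, 1824 ± 84.7 in Mfn2-/- and 1516 ± 88.5 in Mfn1&2-/-.

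Oosp1 (chr19:11667460-11691150, minus strand, on the same chromosome as Zp1) stood at 131, 126 and 118 CPM in WT. It stood at 158, 127 and 132 CPM in Mfn1-/-, at 196, 171 and 178 in Mfn2-/- and at 153, 159.6 and 158 in Mfn1&2-/-. The Mfn2-/- pools were again the 3 highest libraries, as they were for 4 of the 6 genes and for 5.5% of all genes, and 1 Mfn1-/- pool reached the Mfn1&2-/- range. The means were 125 ± 6.84 CPM in WT, 139 ± 16.6 in Mfn1-/-, 182 ± 12.6 in Mfn2-/- and 157 ± 3.57 in Mfn1&2-/-.

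**Figure D2:**
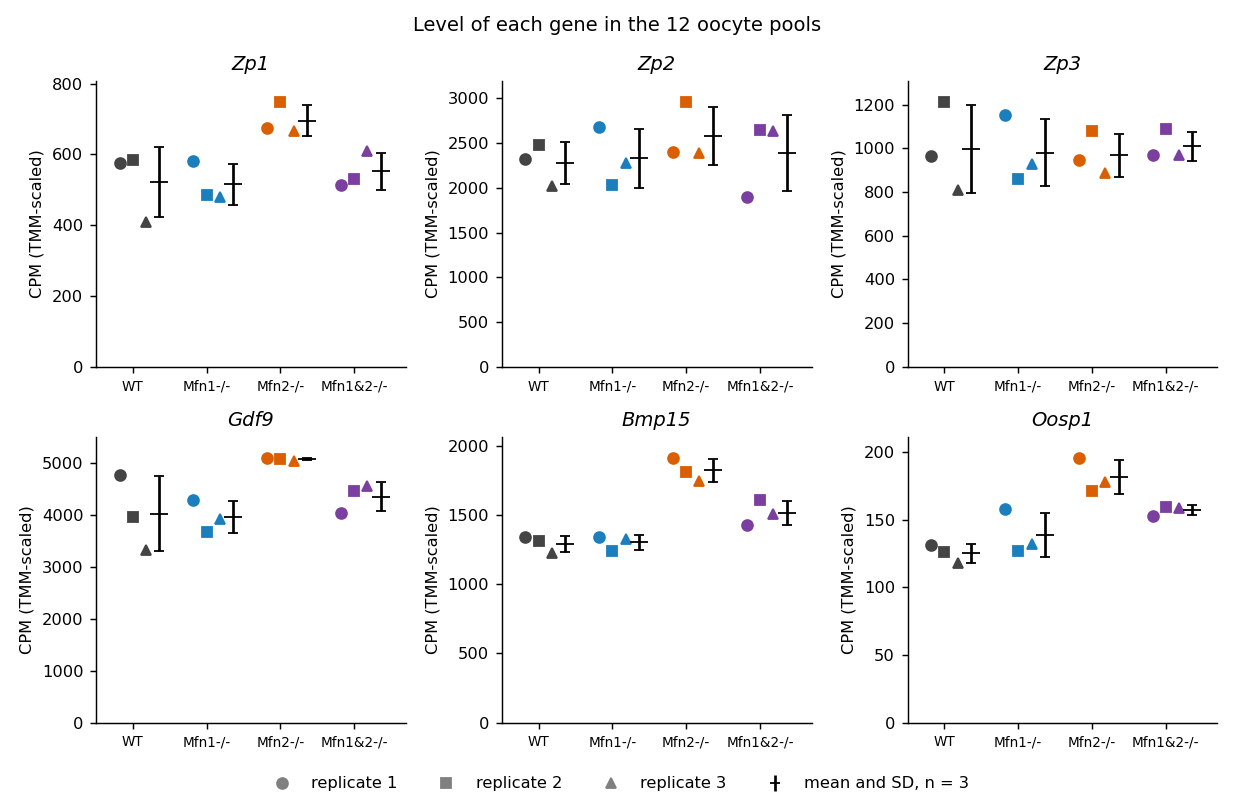
CPM of each gene (y axis, TMM-scaled, from 0) in the 4 groups, with the 3 pools as circle, square and triangle and the mean with SD as a black bar. The Mfn2-/- pools are the highest for Zp1, Gdf9, Bmp15 and Oosp1, while the groups of Zp2 and Zp3 overlap.

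Loss of Mfn2 alone went with higher CPM of 3 of the 6 genes. Bmp15 rose by 0.50 ± 0.08 on the log2 scale (approximate SE), which is 1.41-fold with an approximate 95% interval of 1.26 to 1.58, with an edgeR quasi-likelihood adjusted p of 0.00096 over all genes. Oosp1 rose by 0.54 ± 0.10, or 1.45-fold (1.25 to 1.69, edgeR adjusted p = 0.0033). Zp1 rose by 0.41 ± 0.13, or 1.33-fold (1.10 to 1.60, edgeR adjusted p = 0.0468). In this comparison 4.52% of all genes were called higher and 11.4% were called in either direction. Gdf9 had 1.26 times the WT level (log2 difference 0.34 ± 0.11) and missed the threshold, with an edgeR adjusted p of 0.0547. Zp2 (0.18 ± 0.14, edgeR adjusted p = 0.429) and Zp3 (-0.04 ± 0.14, edgeR adjusted p = 0.894) did not pass. Their approximate 95% intervals ran from -0.10 to 0.47 and from -0.33 to 0.25. For 4 of the 6 genes the Mfn2-/- pools lay wholly above the WT pools, as did 16.1% of all genes.

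Part of this rested on the pool that stands apart. Without WT replicate 3, Bmp15 still rose by 0.46 (edgeR adjusted p = 0.0062) and Oosp1 by 0.50 (edgeR adjusted p = 0.0174), and both passed in each of the 22 alternative settings tried. Without that pool the Zp1 difference was 0.26 (edgeR adjusted p = 0.176) and the Gdf9 difference 0.22 (edgeR adjusted p = 0.2205). The Zp1 call was lost in 10 of the 22 settings, among them the removal of WT replicate 3, Mfn1-/- replicate 2 or 3, any 1 Mfn2-/- pool or Mfn1&2-/- replicate 2 (edgeR adjusted p up to 0.176). Gdf9 passed in 6 settings, among them the removal of WT replicate 1 or Mfn1&2-/- replicate 1.

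**Figure D3:**
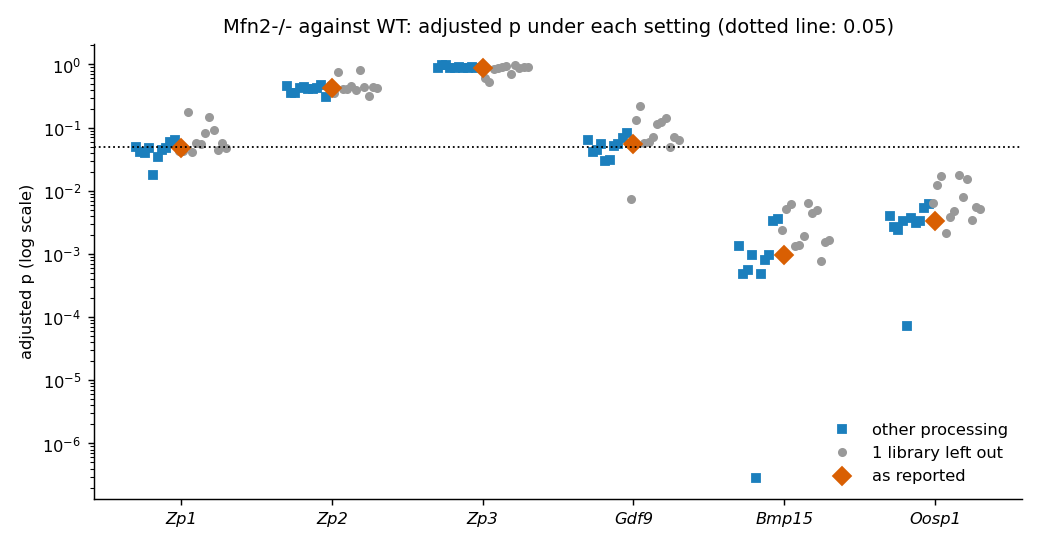
Adjusted p (y axis, log scale) of each gene in Mfn2-/- against WT as reported (diamond), under other processing (squares) and with 1 library left out (circles), beside the threshold of 0.05 (dotted line). Bmp15 and Oosp1 lie below the line throughout, Zp1 and Gdf9 lie on both sides, and Zp2 and Zp3 lie above it.

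For loss of Mfn1 alone no difference of the 6 genes from WT was resolved, within the intervals given below. None passed against WT by edgeR, by the DESeq2 Wald test or by limma-voom (0 of 6 each, with 0.228% of all genes called by edgeR), and 0 of 6 had an unadjusted p under 0.05. The log2 differences ran from -0.02 ± 0.14 for Zp3 to 0.15 ± 0.10 for Oosp1, and no group lay apart from WT (18.1% of all genes did). At an unadjusted p under 0.05 there were 12.8% of all genes. Without WT replicate 3, Zp1 had -0.17, Zp3 -0.15 and Gdf9 -0.14, and again 0 of 6 passed by edgeR. The approximate 95% interval of Bmp15 was -0.15 to 0.18 and that of Oosp1 -0.06 to 0.36. Those of Zp1 (-0.29 to 0.25), Zp2 (-0.25 to 0.32), Zp3 (-0.31 to 0.26) and Gdf9 (-0.25 to 0.21) were wider. Differences within these limits stay possible.

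In Mfn1&2-/- oocytes Bmp15 and Oosp1 had levels between those of WT and Mfn2-/-. Against WT, 0 of 6 genes passed by edgeR, DESeq2 or limma-voom (4.21% of all genes called by edgeR), and 2 had an unadjusted p under 0.05 (18.6% of all genes). These were Bmp15, at 0.23 ± 0.08 (edgeR adjusted p = 0.111), and Oosp1, at 0.33 ± 0.10 (edgeR adjusted p = 0.0786). Their pools lay wholly above WT, as did 11.3% of all genes. Zp1, Zp2, Zp3 and Gdf9 had differences of 0.02 to 0.11, and each fell below 0 without WT replicate 3, the lowest being Zp3 at -0.11. Against Mfn1-/-, 0 of 6 passed by edgeR, DESeq2 or limma-voom (5.36% of all genes by edgeR) and 1 had an unadjusted p under 0.05 (20.7% of all genes), Bmp15 at 0.22 ± 0.08 (edgeR adjusted p = 0.113). Its pools lay wholly above Mfn1-/-, as did 13.2% of all genes.

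The mutant groups were also compared directly. Bmp15 was lower in Mfn1&2-/- than in Mfn2-/- by edgeR (-0.27 ± 0.08, adjusted p = 0.0400), the 1 of 6 genes called, with 4.08% of all genes called lower. That call was lost in 10 of the 22 settings, among them the removal of any 1 pool of either group, WT replicate 2 or Mfn1-/- replicate 3 (edgeR adjusted p up to 0.129). Zp1, Gdf9, Bmp15 and Oosp1 all lay wholly below Mfn2-/- in this comparison, as did 15.5% of all genes. Between Mfn1-/- and Mfn2-/-, 4 of 6 genes were lower in Mfn1-/- (6.46% of all genes were called lower). Bmp15 differed by -0.49 ± 0.08 (edgeR adjusted p = 0.0010) and Oosp1 by -0.39 ± 0.10 (edgeR adjusted p = 0.0174). Zp1 differed by -0.43 ± 0.13 (edgeR adjusted p = 0.0335) and Gdf9 by -0.36 ± 0.11 (edgeR adjusted p = 0.0386). The 4 genes had no overlap between these groups (17.4% of all genes lay wholly lower). The Bmp15 call held in each of 22 settings. The Oosp1 call was lost in 4, without Mfn1-/- replicate 2 or 3 or Mfn2-/- replicate 1 or 3 (edgeR adjusted p up to 0.0835). The calls of Zp1 and Gdf9 were lost in 6 and 9, each without Mfn1-/- replicate 2 or 3, without any 1 Mfn2-/- pool and with library size alone as scaling (edgeR adjusted p up to 0.12 and 0.143). Gdf9 also lost it without WT replicate 2 or Mfn1&2-/- replicate 2. The lowest count of called members without 1 library was 1, with 7.67 to 14.7% of all genes called over those fits.

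Whether the effect of Mfn2 loss depends on Mfn1 was tested as an interaction. The Mfn2 effect was smaller without Mfn1 by 0.28 ± 0.11 for Bmp15 and by 0.36 ± 0.14 for Oosp1, with unadjusted p of 0.0219 and 0.0216 (21.1% of all genes had one under 0.05). Neither passed, with edgeR adjusted p of 0.158 for both, and 0 of 6 passed by edgeR, DESeq2 or limma-voom (4.13% of all genes by edgeR). Averaged over both Mfn1 genotypes, Mfn2-deficient pools (6) against Mfn2-intact pools (6) gave higher Bmp15 by 0.36 ± 0.06 (1.28-fold, edgeR adjusted p = 0.00062) and higher Oosp1 by 0.36 ± 0.07 (1.28-fold, edgeR adjusted p = 0.0039). These 2 of 6 genes compare with 6.2% of all genes called higher. Bmp15 had its 6 Mfn2-deficient pools at 1431 to 1915 CPM, above all 6 intact pools at 1223 to 1343 CPM, a separation found in 2% of all genes in that direction. Both calls held in all 21 settings in which this contrast could be run. The corresponding contrast for Mfn1 called 0 of 6 genes by edgeR, DESeq2 or limma-voom (4.4% of all genes by edgeR), with Bmp15 at -0.13 ± 0.05 (unadjusted p = 0.0347, edgeR adjusted p = 0.202) as the 1 gene with an unadjusted p under 0.05 (21.1% of all genes).

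**Figure D4:**
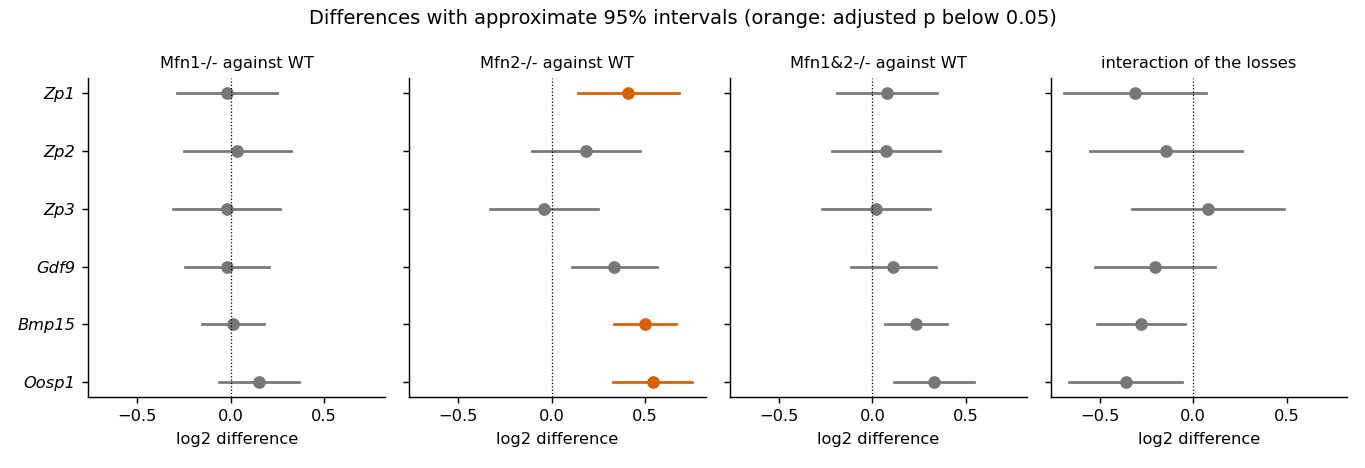
Log2 difference of each gene (x axis) with its approximate 95% interval in Mfn1-/-, Mfn2-/- and Mfn1&2-/- against WT and for the interaction, with calls in orange. The 3 orange points are Zp1, Bmp15 and Oosp1 in Mfn2-/-, at 0.41, 0.50 and 0.54.

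Ratios between genes of the same library do not depend on scaling. The 2 ligands that can pair, BMP15 and GDF9, had RNA counts in a ratio of 0.326 ± 0.0432 in WT, 0.329 ± 0.0142 in Mfn1-/-, 0.359 ± 0.0152 in Mfn2-/- and 0.349 ± 0.0155 in Mfn1&2-/- (n = 3). The log2 ratio was higher by 0.12 in Mfn2-deficient pools (exact permutation test, 6 against 6, two-sided p = 0.0671, BH-adjusted p = 0.201 over 6 ratio tests). The ratio of Zp1 to Zp3 was 0.528 ± 0.0607 in WT, 0.529 ± 0.0317 in Mfn1-/-, 0.7199 ± 0.0296 in Mfn2-/- and 0.5497 ± 0.0735 in Mfn1&2-/-. All 3 Mfn2-/- pools, at 0.694 to 0.752, lay above the other 9, whose highest was 0.631. Over the 6 Mfn2-deficient pools the log2 ratio was higher by 0.25 (exact permutation test, two-sided p = 0.0541, BH-adjusted p = 0.201). The ratio of Zp2 to Zp3 was 2.32 ± 0.233 in WT, 2.38 ± 0.0651 in Mfn1-/-, 2.66 ± 0.107 in Mfn2-/- and 2.37 ± 0.385 in Mfn1&2-/-, and its difference by Mfn2 was 0.09 (exact permutation test, two-sided p = 0.3203, BH-adjusted p = 0.481). By Mfn1 the 3 differences were -0.01, -0.20 and -0.07 in the same order, with exact two-sided permutation p of 0.8896, 0.145 and 0.4502. The test could reach a p of 0.00216 at the lowest, and 0 of 6 ratio tests passed after adjustment.

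**Figure D5:**
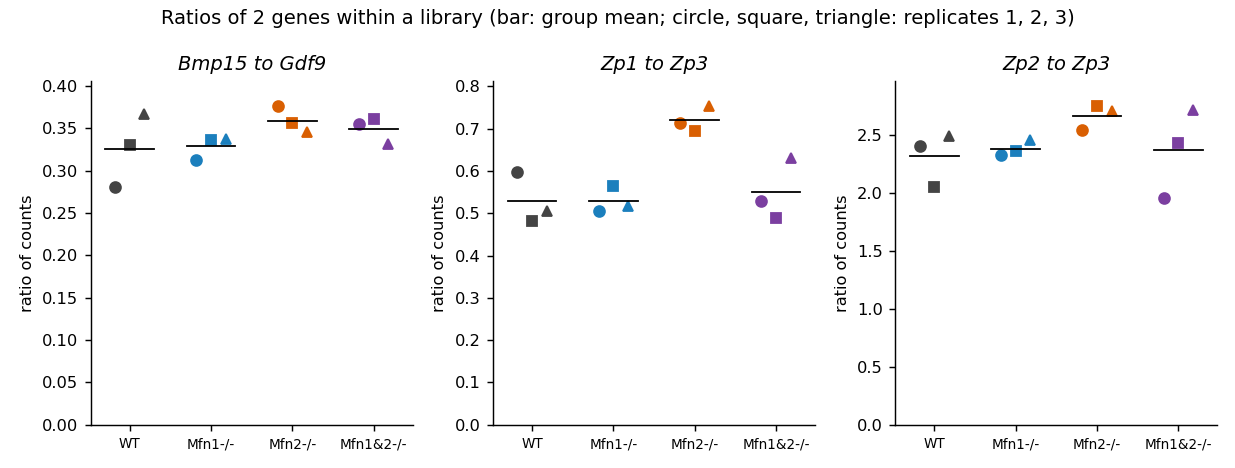
Ratio of counts (y axis, from 0) of Bmp15 to Gdf9, Zp1 to Zp3 and Zp2 to Zp3 in each pool, with the group mean as a bar. For Zp1 to Zp3 the Mfn2-/- pools, at 0.694 to 0.752, lie above all others.

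Of 9 oocyte markers measured outside the 6 genes, 2 were called higher (4.52% of all genes were) and 0 lower in Mfn2-/- against WT, with a median log2 difference of 0.25 against 0.01 over all genes. These were Ooep (0.61 ± 0.14, edgeR adjusted p = 0.0109), part of the subcortical maternal complex, and Mos (0.58 ± 0.15, edgeR adjusted p = 0.0190), the kinase that holds eggs at metaphase II. Without WT replicate 3, Ooep had 0.54 (edgeR adjusted p = 0.0526) and Mos 0.41 (edgeR adjusted p = 0.0696), and 0 of the 9 were called. The lowest of the 9 was Ddx4, a germ cell RNA helicase, at -0.37 ± 0.14 (edgeR adjusted p = 0.102), and over both Mfn1 genotypes it was lower in Mfn2-deficient pools by edgeR (-0.51 ± 0.10, adjusted p = 0.0037). The summed level of the 9 was 5780 to 6694 CPM in Mfn2-/-, against 5028 to 6031 in WT, 5194 to 5891 in Mfn1-/- and 5492 to 6024 in Mfn1&2-/-. Of the 10 granulosa markers, 4 were called lower and 0 higher in Mfn2-/- against WT (11.4% of all genes called in either direction). These were Inha, Inhba, Inhbb and Hsd17b1, each highest in WT replicate 3. Without that pool 0 of the 10 were called in Mfn2-/-, with Inha at -1.85 (edgeR adjusted p = 0.0746), Inhba at -2.79 (0.136), Inhbb at -1.35 (0.419) and Hsd17b1 at -1.22 (0.317). In Mfn1&2-/- 2 of the 10 were lower (4.21% of all genes called in either direction), and 1 without that pool (3%). In Mfn1-/- 0 were lower by edgeR with that pool (0.228% of all genes called) or without it (0.114%). The part of either marker group in the results for the 6 genes was not tested. Of 7 cumulus markers 1 was measured and it was called in no comparison with WT. Of 10 markers of theca, endothelium, blood and immune cells 3 were measured, and 1, Pecam1, was called, higher in Mfn1&2-/- (4.21% of all genes called). In pools of oocytes, more RNA per oocyte and more oocytes at a given growth state cannot be told apart. CPM are shares of a library, so a change in the other RNA cannot be told apart from these either.

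The list of zona-processing enzymes and oocyte-secreted relatives held 21 genes, of which 14 were measured. In Mfn2-/- against WT 0 were higher and 2 lower, with a median of 0.21 against 0.01 over all genes (11.4% of all genes were called in either direction). The 2 were the ligands Tgfb2 (642 ± 44.5 to 438 ± 27.5 CPM, -0.55 ± 0.09, edgeR adjusted p = 0.0015) and Tgfb3 (66.2 ± 4.56 to 44.7 ± 0.887 CPM, -0.57 ± 0.13, edgeR adjusted p = 0.0134). The Tgfb3 call was lost without WT replicate 3, which left 1 gene of the list called, or without Mfn2-/- replicate 2. Bmp6, another oocyte BMP, had -0.32 ± 0.11 (edgeR adjusted p = 0.0714), and Wee2, an intracellular meiotic kinase kept on the list, 0.29 ± 0.10 (edgeR adjusted p = 0.0644). Furin, a protease that matures TGF-beta family proproteins, had -0.06 ± 0.10 (edgeR adjusted p = 0.76). Fgf10 and Astl fall outside the naming rule and were chosen after their values were seen. Fgf10 was the 1 gene of the list called in Mfn1-/- (-1.94 ± 0.36, edgeR adjusted p = 0.0351), with 0.228% of all genes called. Astl, the protease that cleaves ZP2 after fertilization, was higher in Mfn1&2-/- (428 ± 48.6 to 699 ± 197 CPM, 0.71 ± 0.16, edgeR adjusted p = 0.0171). So was Tgfb2 (0.46 ± 0.09, edgeR adjusted p = 0.0092), with 4.21% of all genes called in Mfn1&2-/- against WT. The Fgf10 call was lost in 9 settings and the Astl call in 3, among them the removal of WT replicate 3.

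Of the 17 listed transcription factors of oocyte-secreted genes 15 were measured. In Mfn2-/- 0 were higher and 1 lower (median 0.14 against 0.01, with 11.4% of all genes called in either direction). Figla was rare, at 5.01 ± 1.58 CPM in WT and 6.71 ± 3.07 in Mfn2-/- (0.42 ± 0.45, edgeR adjusted p = 0.603). Nobox stood at 307 ± 74.5 and 378 ± 28.7 CPM (0.30 ± 0.14, edgeR adjusted p = 0.182), a difference of 0.11 without WT replicate 3 (edgeR adjusted p = 0.577). Lhx8, a LIM homeobox factor, stood at 187 ± 23.7 and 233 ± 16.7 CPM (0.32 ± 0.10, edgeR adjusted p = 0.0599). Sohlh2, a factor of early follicle formation, was the gene called lower (10.8 ± 2.59 to 4.57 ± 2.13 CPM, -1.24 ± 0.34, edgeR adjusted p = 0.0265), and its call was lost in 5 settings, WT replicates 2 and 3 and Mfn2-/- replicates 1 and 3 left out in turn among them. Tcf4, an E-protein, had -1.26 ± 0.46 (edgeR adjusted p = 0.0891), and Gtf2a1l, a germ cell form of a general transcription factor, 0.52 ± 0.23 (edgeR adjusted p = 0.156). In Mfn1-/- and in Mfn1&2-/- against WT 0 of 15 were called by edgeR (0.228% and 4.21% of all genes).

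The list of receptors, SMADs and antagonists of GDF9, BMP15 and related ligands had 19 of 26 genes measured. These are levels in oocyte pools with cumulus cells removed, not in the granulosa cells to which GDF9 and BMP15 are sent. In Mfn2-/- 1 was higher and 1 lower (median -0.09 against 0.01, with 11.4% of all genes called in either direction). Tgfbr3, a co-receptor (betaglycan), fell from 104 ± 6.94 to 46.2 ± 15.7 CPM (-1.17 ± 0.20, edgeR adjusted p = 0.0023). It was the 1 gene of the list called in Mfn1&2-/- against WT (-1.18 ± 0.20, edgeR adjusted p = 0.0037), with 4.21% of all genes called. Smad4, the common SMAD, was higher at 0.30 ± 0.09 (edgeR adjusted p = 0.0494), a call lost in 15 of 22 settings, including the removal of each WT, Mfn1-/- and Mfn2-/- pool in turn. Without WT replicate 3 the list had 0 higher and 1 lower (6.41% of all genes called in either direction). Bmpr2, the type II receptor of both ligands, stood at 200.5 ± 36.4 CPM in WT and 164 ± 17.8 in Mfn2-/- (-0.29 ± 0.14, edgeR adjusted p = 0.203). Tgfbr1, the type I receptor used by GDF9, stood at 49.6 ± 5.36 and 51.0 ± 11.2 CPM (0.04 ± 0.16, edgeR adjusted p = 0.915). Smad2 had 0.23 ± 0.09 (edgeR adjusted p = 0.112). Fst, the activin antagonist follistatin, had 8.56 ± 10.2 CPM in WT and 0.8595 ± 0.63 in Mfn2-/- (-3.33 ± 1.07, edgeR adjusted p = 0.0552). Without WT replicate 3 the Fst difference was -1.66 (edgeR adjusted p = 0.404). In Mfn1-/- 0 of 19 were called by edgeR (0.228% of all genes).

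All 33 listed genes of the secretory route were measured, and in Mfn2-/- 5 were higher and 4 lower (median 0.03 against 0.01). Of all genes 4.52% were higher and 11.4% were called in either direction. Those with the smallest p included 3 that were higher, Sar1b, a GTPase of COPII vesicle budding (26.2 ± 1.59 to 43.7 ± 5.94 CPM, 0.74 ± 0.14, edgeR adjusted p = 0.0045), Stt3b, an oligosaccharyltransferase subunit (681 ± 105 to 1086 ± 61.4 CPM, 0.67 ± 0.13, edgeR adjusted p = 0.0042), and Ssr1, a translocon-associated protein (0.52 ± 0.13, edgeR adjusted p = 0.0157). Sec61g, a subunit of the translocon, was lower (25.1 ± 3.07 to 13.7 ± 0.656 CPM, -0.87 ± 0.17, edgeR adjusted p = 0.0038). The other 5 calls fall outside the naming rule and are given because they complete the count. Spcs2, of the signal peptidase, was higher at 0.57 ± 0.14 (edgeR adjusted p = 0.0177), as was Sec61a1, the channel of the translocon, at 0.42 ± 0.12 (edgeR adjusted p = 0.0330). Lower were Sec11a, a catalytic subunit of the signal peptidase, at -0.62 ± 0.17 (edgeR adjusted p = 0.0249), the Golgi matrix gene Golga2 at -0.36 ± 0.10 (edgeR adjusted p = 0.0286) and the oligosaccharyltransferase subunit Stt3a at -0.39 ± 0.12 (edgeR adjusted p = 0.0477). Without WT replicate 3 the list had 3 higher and 3 lower (6.41% of all genes called in either direction). The calls of Spcs2, Sec61a1 and Stt3a were lost there, and that of Stt3a was lost in 14 of 22 settings. The Ssr1 call was lost without WT replicate 1 or without Mfn2-/- replicate 3. In Mfn1-/- 0 of 33 were called by edgeR (0.228% of all genes). In Mfn1&2-/- 2 were higher and 0 lower (4.21% of all genes called in either direction), and 1 and 0 without WT replicate 3 (3%).

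No gene of the annotation overlapped any of the 6 (0 for each). Of the nearest measured gene on either side of each, 12 in all, 1 was called in Mfn2-/- against WT (11.4% of all genes were). This was Uqcrq, a subunit of respiratory complex III, which lies 191 bases from Gdf9 on the other strand (chr11:53427922-53430831). It went from 26.5 to 41.1 CPM (0.63 ± 0.18, edgeR adjusted p = 0.0312), and the call was lost in 6 settings, among them the removal of WT replicate 2 or 3 or of any 1 Mfn2-/- pool. The sources used here do not say whether the counting used strand.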

How the data were processed

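RNA from 12 pools of GV oocytes was measured by total RNA sequencing after removal of ribosomal RNA (100-base paired-end reads), per the labels' protocols. FastQC 0.11.7, STAR 2.7.0a, edgeR and the mm10 genome are named in the submitters' processing notes. The sources used here do not give the annotation, the strand setting or the handling of reads with several matches. The authors deposited raw counts per gene, in which every gene exceeds 1 CPM in at least 3 libraries, and a signal table of TMM-scaled CPM, which a recomputation from those counts matched within a relative 5.07e-15.

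Groups were taken from the labels. A genotype spelled "Mn2-/-" was placed in Mfn2-/- by its description. TMM-scaled counts of all 11385 genes (filterByExpr removed none) entered a quasi-likelihood fit in edgeR 4.0.16 (R 4.3.3), with a mean for each of the 4 groups and 8 residual degrees of freedom. P-values were BH-adjusted over all genes within each of 9 comparisons, and an adjusted p below 0.05 is a call. SE is approximate: the size of the log2 difference over the root of its F statistic. The approximate intervals of log2 differences and folds were built from this SE, so they include the spread between pools and not counting error alone. A floor of 3 counts was 0.188 to 0.253 CPM. Ratios were tested with exact permutation tests over all 924 splits (Python 3.11.15). Gene models are GENCODE vM21.

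Alternatives were RLE, upper-quartile or library-size scaling, scaling without the 6 genes, DESeq2 1.42.0, limma-voom (limma 3.58.1), a block for the replicate number, no filter or a minimum of 5 CPM in 3 libraries, only the groups compared, and each library left out in turn. The 6 genes and the lists were chosen with earlier results of these data known. Besides the 6 genes, Mfn1 and Mfn2, the text names up to 4 genes of each list with the smallest p in Mfn2-/- against WT. It also names Bmpr2, Tgfbr1, Figla, Nobox, Furin and the 3 genes most like each of the 6. Of the nearest neighbours only Uqcrq is named, because it was called. The symbol Gcnf on the factor list is an older name of Nr6a1.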

Additional observations from a re-analysis of the deposited data

Results flagged for a closer look

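For 6 genes of the lists the effect of Mfn2 loss differed with and without Mfn1, by the interaction test itself (4.13% of all genes called). Tgfb2 had -0.55 in Mfn2-/- against WT and higher in Mfn1&2-/- against Mfn1-/- by 0.38 (edgeR adjusted p = 0.0232, lost in 5 settings), a difference of 0.94 ± 0.13 on the log2 scale (edgeR adjusted p = 0.0015) that was called in every one of the 12 fits without 1 library. Sec61g had -0.87 in Mfn2-/- and stood at 0.24 ± 0.16 in Mfn1&2-/- against Mfn1-/- (edgeR adjusted p = 0.444), a difference of 1.11 ± 0.23 (edgeR adjusted p = 0.0188) lost without Mfn2-/- replicate 3. Ssr1 was higher by 0.52 in Mfn2-/- and stood at -0.19 ± 0.13 in Mfn1&2-/- against Mfn1-/- (edgeR adjusted p = 0.427), a difference of -0.70 ± 0.18 (edgeR adjusted p = 0.0398) lost in 9 settings. The other 3 fall outside the naming rule and were chosen after their values were seen: Stt3a with 0.77 ± 0.17 (edgeR adjusted p = 0.0225, lost in 3 settings), Sec11c with 0.96 ± 0.25 (edgeR adjusted p = 0.0463, lost in 13) and Nr6a1 with -0.58 ± 0.13 (edgeR adjusted p = 0.0296, lost in 5). None of the 6 secreted-factor genes passed this test by edgeR, DESeq2 or limma-voom.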

How the results depend on the processing

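Against WT, 2 to 4 of the 6 genes were called in Mfn2-/- over the 22 alternatives, in which 6.22 to 14.8% of all genes were called. With the replicate number as a block, the count was 2 (9.5% of all genes), with Zp1 at 0.42 (edgeR adjusted p = 0.0587). With that block the Bmp15 call in Mfn1&2-/- against Mfn2-/- was lost (0 called, 8.48% of all genes). So was that of Gdf9 in Mfn1-/- against Mfn2-/- (-0.36, 3 called, 11.7% of all genes). Deviations of same-numbered pools correlated at -0.13 to 0.18, with 4 of 18 over 0.1. Those of pools with unlike numbers correlated at -0.26 to 0.18, with 3 of 36 over 0.1. These values cannot settle whether pools were paired. The column names of the counts carry other numbers, some shared between groups, and these were not tried as a block. The count for Mfn1-/- against Mfn2-/- was 2 with library size alone (13.6% of all genes), and that for Mfn2-deficient pools 4 with DESeq2 (15.3% of all genes). Leaving out 1 library gave 0 to 2 called in Mfn1&2-/- against Mfn2-/- (5.01 to 11.4% of all genes). In Mfn1-/- against Mfn2-/- it gave 1 to 4 (7.67 to 14.7% of all genes).

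Signs turned only for differences that passed no test. With library size alone, Mfn1-/- against WT gave 0.037 for Zp1, 0.038 for Zp3 and 0.036 for Gdf9, Mfn2-/- against WT 0.0081 for Zp3, Mfn1&2-/- against Mfn1-/- -0.025 for Zp2 and -0.025 for Zp3, and Zp3 had -0.033 in the interaction and -0.0084 by Mfn2. Zp3 by Mfn2 was also -0.0057 with RLE and with DESeq2 and -0.0029 with the 5 CPM filter, and with upper-quartile scaling it was -0.0080 in Mfn1-/- against Mfn2-/-. Ranges over fits without 1 library that cross 0 were, in Mfn1-/- against WT, Zp1 -0.17 to 0.064, Zp2 -0.066 to 0.13, Zp3 -0.15 to 0.14, Gdf9 -0.14 to 0.12 and Bmp15 -0.025 to 0.048. In Mfn2-/- against WT they were Zp3 -0.17 to 0.13, Furin -0.14 to 0.044 and Tgfbr1 -0.15 to 0.14. In Mfn1&2-/- against WT they were Zp1 -0.071 to 0.16, Zp2 -0.0063 to 0.21, Zp3 -0.11 to 0.18 and Gdf9 -0.0068 to 0.25. In Mfn1&2-/- against Mfn1-/- they were Zp2 -0.053 to 0.18 and Zp3 -0.044 to 0.16, against Mfn2-/- Zp2 -0.19 to 0.030, and in Mfn1-/- against Mfn2-/- Zp3 -0.096 to 0.10. Zp3 ran from -0.084 to 0.21 in the interaction, from -0.063 to 0.083 by Mfn2 and from -0.047 to 0.0997 by Mfn1, and Zp2 from -0.087 to 0.032 by Mfn1. The Bmp15 to Gdf9 log2 ratio by Mfn1 ran from -0.067 to 0.017. The cause was not tested.

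Over all genes, calls rose with DESeq2 from 26 to 224 in Mfn1-/-, from 479 to 834 in Mfn1&2-/- against WT, from 610 to 1044 against Mfn1-/-, from 470 to 903 in the interaction and from 501 to 875 by Mfn1. With only the groups compared the first was 13, and the interaction gave 276 with the block. Without 1 library calls fell as low as 3 (and rose to 51) in Mfn1-/-, 708 in Mfn2-/-, 282 in Mfn1&2-/- against WT, 295 against Mfn1-/-, 570 against Mfn2-/-, 873 in Mfn1-/- against Mfn2-/-, 160 in the interaction and 228 by Mfn1. The share of calls that were higher went from 39.7 to 49.8% with library size alone in Mfn2-/- against WT, from 51.5 to 38.5% in Mfn1&2-/- against Mfn1-/-, from 60.1 to 48.2% against Mfn2-/- and from 70.9 to 46.3% in the interaction, where that scaling moved the median of all genes from -0.01 to -0.12. At 3 pools per group, differences such as that of Gdf9 lie at the threshold.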

Other observations

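Distances between centred log2 CPM profiles over the 12 libraries were taken to 8758 genes with a mean of at least 5 CPM. Genes with predicted-gene or clone-type symbols were left out of these. By this distance Bmp15 and Oosp1 were close to each other. Oosp1 was the gene at rank 3 for Bmp15, after Pramef12 and Syce2, and Bmp15 was at rank 2 for Oosp1, between Arhgef39 and Gpr180, with a root-mean-square distance of 0.08 against a median of 0.33 to all candidates. Gdf9 was at rank 2 for Zp1, between Rapgefl1 and Aldh2 (distance 0.10), and Zp1 was at rank 8 for Gdf9, whose nearest were Tmem135, Cdca5 and Mier2. The zona genes Zp2 and Zp3 were less close to each other (distance 0.14, at ranks 45 and 67). The nearest to Zp2 were Exosc1, Rhbdf2 and Farsa, and to Zp3 Cox7b, Wnk2 and Cic. The libraries share the groups and the depth, so these distances are descriptions.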
